A study of Homo sapiens with 6 samples.

Results

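The granins and the enzymes that cut prohormones inside secretory granules were followed as a group of 10 genes: CHGA, CHGB, SCG2, SCG3, SCG5, VGF, PCSK1, PCSK2, PCSK1N and CPE. They were taken by gene name, and all 10 had a row among the 32862 genes of the deposited table. The cells were SH-SY5Y, a human neuroblastoma line of sympathetic origin, grown under the same conditions without treatment. There were 3 libraries of poly(A) RNA labelled wild type (WT) and 3 labelled OTULIN KO, in which CRISPR-Cas9 had been used to knock out OTULIN, a deubiquitinase of linear ubiquitin chains. All 6 libraries carry the label batch 1. Whether the knockout line was 1 clone or a pool, and whether replicates were separate cultures, is not given in the sources used here, so p-values cover no more than the spread between the libraries at hand.

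Granins are acidic proteins that gather in the trans-Golgi network and help to form dense-core granules, the vesicles in which neuroendocrine cells store peptides and catecholamines. Many of them are precursors too, cut at pairs of basic residues by the prohormone convertases, after which carboxypeptidase E trims the exposed basic residues. The convertases have small binding proteins of their own: 7B2, encoded by SCG5, assists and holds back the convertase encoded by PCSK2, and proSAAS, encoded by PCSK1N, inhibits the one encoded by PCSK1. In sympathetic and chromaffin cells these proteins share granules with noradrenaline and peptides such as neuropeptide Y, and chromogranin A is a clinical marker of neuroendocrine tumours.

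The libraries of the 2 labels differed in depth and composition before any single gene was considered. Totals were 61772795 to 64352333 counts in WT and 725827 to 862932 in KO, a depth ratio of 78.5, and 27453 to 27958 genes had a count in WT against 2306 to 2567 in KO. Genes of basic cell functions were at 0 in all 3 KO libraries as well, among them the ribosomal protein gene RPS15 (29454 to 32134 counts in WT) and the glycolytic gene TPI1 (40011 to 42517). Whether the KO columns hold complete libraries is not given in the sources used here, so a KO count of 0, and every fold bound that rests on one, describes the deposited columns. Depth, composition and genotype label therefore cannot be told apart, and in bulk RNA fewer cells expressing a gene and less RNA per cell cannot be told apart either. OTULIN had 0 counts in all 3 KO libraries, but so did 71.3% of the 10820 genes whose FPKM averaged 1 or more (the tested genes), so its absence does not check the label. Of 7 sympathetic markers used for the check, 6 were above 1 FPKM in WT, with tyrosine hydroxylase (TH) at 0.503. In KO, ELAVL4, HAND2 and ISL1 were detected while PHOX2A, GATA3, DBH and TH were at 0. The 7 together held 0.154% to 0.181% of the counts in KO against 0.442% to 0.486% in WT. The detected markers did not all go the same way. Mean FPKM of ELAVL4 was higher in KO, at 140.5 against 55.9 in WT. HAND2 was lower in KO (72.8 against 240.8), as was ISL1 (32.9 against 103.6). ELAVL4 had 1089, 1023 and 1020 KO counts, HAND2 267, 228 and 206, and ISL1 86, 74 and 87. All 5 epithelial markers had a count in some KO library, led by KRT5 with 10, 29 and 24 counts, and the list held 0.00173% to 0.00551% in KO and 0.000350% to 0.00312% in WT. Most WT counts of this list were in WT replicate 3, where KRT5 had 1042 counts, against 34 and 21 in WT replicates 1 and 2. Of 4 blood markers in the table, only PTPRC had a KO count, and of 5 glial markers only MBP. Of 5 endothelial and fibroblast markers, COL1A1 and PECAM1 had KO counts, and that list held 0.00278% to 0.00827% in KO and 0.00149% to 0.00194% in WT. The part of these cell type markers in the results was not tested.

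In wild-type cells the granin genes were abundant and the 2 prohormone convertase genes were nearly absent. The level of VGF, the highest, was 613.9 ± 63.4 FPKM (fragments scaled to gene length and library depth, as deposited; SD, n = 3), 39th among all genes in the table. PCSK1, the lowest, was at 0.0127 ± 0.0030 FPKM. The 10 genes together held 0.374%, 0.340% and 0.331% of all counts in WT replicates 1, 2 and 3. VGF, CHGA and SCG2 made up 86.7%, 85.5% and 85.2% of these, while PCSK1 and PCSK2 together made up 0.0262%, 0.0174% and 0.0171%.

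Among the granins, VGF (ENSG00000128564, chr7:101162509-101165569, minus strand, hg38), which is cut into several bioactive peptides and is induced by neurotrophins, was at 685, 592 and 564 FPKM in the 3 WT libraries. CHGA (ENSG00000100604, chr14:92923150-92935285, plus strand), the gene of chromogranin A, followed at 254, 207 and 199.5 FPKM. SCG2 (ENSG00000171951, chr2:223596940-223602361, minus strand), the precursor of secretoneurin, was at 145, 177 and 182 FPKM. These 3 levels did not overlap one another in any library, and the mean of VGF was 2.79 times that of CHGA. SCG3 (ENSG00000104112, chr15:51681492-51721026, plus strand), whose protein binds chromogranin A and the granule membrane, was at 44.6, 44.7 and 44.0 FPKM. CHGB (ENSG00000089199, chr20:5911510-5925353, plus strand), the gene of chromogranin B, was at 39.6, 42.6 and 44.1 FPKM. The levels of SCG3 and CHGB overlapped, and SCG2 stood 3.78 times above SCG3.

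The convertase genes stood at the other end of the order. PCSK2 (ENSG00000125851, chr20:17226107-17484578, plus strand) was counted 57, 33 and 29 times in WT, a level of 0.0815 ± 0.0325 FPKM. PCSK1 (ENSG00000175426, chr5:96390333-96434143, minus strand) had 4, 5 and 6 counts. Both were above 0 in each WT library, yet only just so for PCSK1, since 3 counts in a WT library are the limit that a count of 0 allows. Between SCG5 and PCSK2, the next gene down, lay the widest gap of the order, a ratio of 51.9.

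Genes of the convertase-binding proteins and of the trimming enzyme were expressed well above the convertase genes. PCSK1N (ENSG00000102109, chrX:48831096-48835610, minus strand), which encodes the inhibitor proSAAS, was at 53.9, 36.3 and 34.4 FPKM in WT, overlapping CHGB and SCG3. SCG5 (ENSG00000166922, chr15:32641676-32697098, plus strand), the gene of the PCSK2 partner 7B2, was at 4.77, 3.998 and 3.93 FPKM. CPE (ENSG00000109472, chr4:165361194-165498547, plus strand), the carboxypeptidase, was at 17.4, 19.8 and 18.1 FPKM. Neither CPE nor SCG5 overlapped its neighbours in the order. The plot of wild-type levels shows this order by role.

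**Figure D1:**
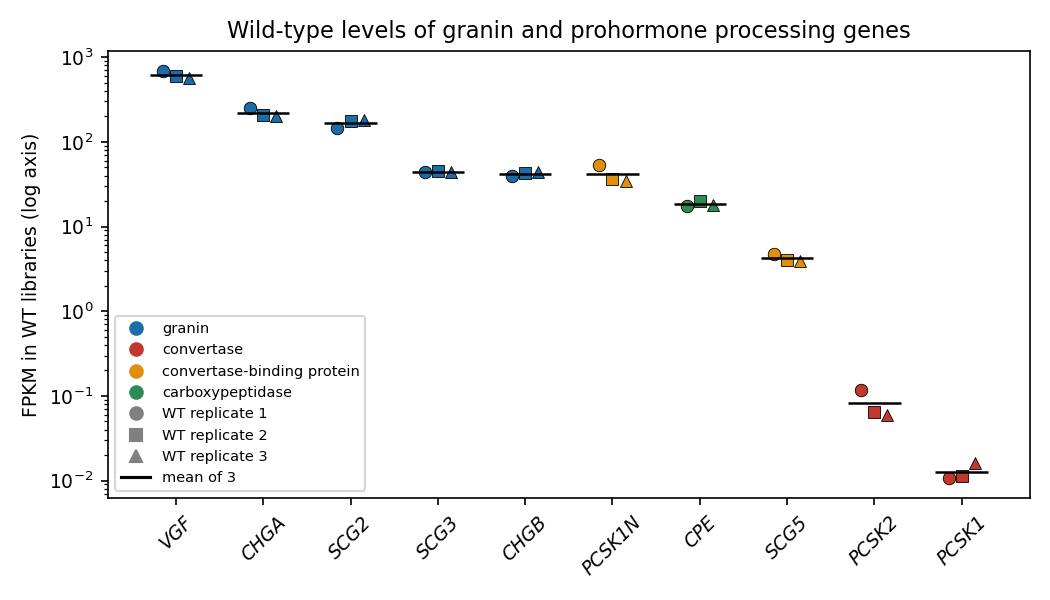
Level of each of the 10 genes in the 3 WT libraries, in FPKM on a log axis, coloured by role, with a line at the mean. The 5 granin genes lie between 39.6 and 685 FPKM, and the 2 convertase genes at or below 0.119 FPKM.

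The order of the middle genes depended on the gene length used. The deposited FPKM imply lengths close to the union of a gene's exons (2922 bases for VGF, where the GENCODE v29 exon union is 2704). With the longest annotated transcript as the length, an alternative chosen after seeing the data, CHGB was at 80.1 ± 4.4, PCSK1N at 57.7 ± 14.8 and SCG3 at 46.3 ± 0.36 CPM per kilobase (CPM being counts divided by the library's depth; SD, n = 3), and their ranges no longer overlapped. The first 3 and last 4 places of the order were the same with either length. GENCODE v29 annotates genes on the opposite strand over SCG3, CPE, SCG5, PCSK2 and PCSK1, and strandedness of counting is not given in the sources used here. Where such a gene had a row, its WT counts were at most 12, small beside those of SCG3, CPE and SCG5. For PCSK1 and PCSK2 the overlapping genes had no row, and antisense reads could weigh on their few counts.

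RefSeq promoter windows (GRCh38.p14, 250 bases before to 50 after the start) were found for 8 of the 10 genes, in 10 windows; CHGB and SCG2 had no entry. The full cAMP response element TGACGTCA, the site bound by CREB proteins, was present in 3 of the 10 windows, in VGF, CHGA and PCSK1, and in 1.85% of all 35116 windows. Its first base lay at -79 in VGF, -54 in CHGA and -77 in PCSK1, counted from the start site. The 3 sequences are shown because they carry the same element at similar distances in the highest gene of the order, the next one and the lowest; the capitals mark the element, and each run holds the 250 bases before the start, 5′ to 3′ on the gene's strand.
VGF: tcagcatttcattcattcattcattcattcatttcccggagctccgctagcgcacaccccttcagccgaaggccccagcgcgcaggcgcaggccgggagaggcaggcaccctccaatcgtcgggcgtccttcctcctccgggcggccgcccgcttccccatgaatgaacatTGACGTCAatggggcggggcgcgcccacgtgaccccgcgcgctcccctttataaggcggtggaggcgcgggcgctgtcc
CHGA: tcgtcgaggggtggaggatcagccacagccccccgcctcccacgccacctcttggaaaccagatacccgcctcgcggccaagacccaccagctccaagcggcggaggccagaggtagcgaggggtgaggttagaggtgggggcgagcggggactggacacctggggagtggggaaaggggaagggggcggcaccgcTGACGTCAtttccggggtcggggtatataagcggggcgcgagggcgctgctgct
PCSK1: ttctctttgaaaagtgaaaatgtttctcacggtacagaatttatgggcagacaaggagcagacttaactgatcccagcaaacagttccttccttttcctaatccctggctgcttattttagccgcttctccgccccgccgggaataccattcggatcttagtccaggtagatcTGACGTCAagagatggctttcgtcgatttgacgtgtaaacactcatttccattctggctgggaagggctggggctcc
They lie at chr7:101165570-101165819 (minus strand), chr14:92922900-92923149 (plus strand) and chr5:96433249-96433498 (minus strand). The PCSK1 window is 1 of 2 in RefSeq for this gene and lies inside the span that the deposited table gives it. With the element in all 3, the WT level of PCSK1 was 0.0127 FPKM against 220.4 ± 29.7 for CHGA and 613.9 for VGF. A match is a description of the letters, not a site shown to be bound.

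The shorter part of the element, TGACG on either strand, which the full element also contains, was in 8 of the 10 windows (7 of the 8 genes) and in 24.6% of all windows. The GC box GGGCGG was in 8 of the 10 windows (7 of the 8 genes), against 15786 of the 35116 windows. TATAAA was in 2 of the 10, in PCSK1 and VGF, against 11.5% of all windows. In PCSK1 it lay in the window that is not printed here, and in VGF on the opposite strand. Only exact matches of the letters were counted. TCAGCACC, the left arm of the element bound by REST, a repressor of neuronal and granin genes outside the nervous system, was found in SCG3 alone among the 8 and in 1.67% of all windows. It is shown with the bases that follow it, at chr15:51681510-51681539 (plus strand), where the arm begins at base 10 of the SCG3 transcript; the capitals mark the arm.
SCG3: ctTCAGCACCcacagggcggacagcgctcc
Motifs were searched on both strands. SCG3, which carries this arm, was at 44.4 ± 0.39 FPKM in WT.

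The 3 wild-type libraries did not rank the genes alike. Relative to the mean of replicates 2 and 3, replicate 1 held 1.52 times as much PCSK1N, 1.25 times as much CHGA, 1.203 times as much SCG5 and 1.18 times as much VGF, in CPM. It held 0.808 times as much SCG2, 0.913 times as much CHGB and 0.918 times as much CPE, while SCG3 was level at 1.00. Over all tested genes this ratio had a median of 0.986 and a 5th to 95th percentile range from 0.796 to 1.25, so that PCSK1N lay outside it, with 1.10% of tested genes higher. The coefficient of variation over the 3 WT libraries was 25.7% for PCSK1N and 0.786% for SCG3, against a median of 6.51% over tested genes.

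The base composition of the transcripts moved with this ratio. The longest GENCODE v29 transcripts of PCSK1N, VGF and CHGA are 74.5%, 70.6% and 62.4% G and C, and that of SCG2 is 43.0%. Over all tested genes the median ratio of WT replicate 1 to the other two rose with GC class, from 0.893 under 40% to 0.947, 1.04 and 1.13 at 60% and above. Not every gene followed its class. SCG5, at 46.5% GC, and SCG3, at 41.9%, lay above the median of their class. SCG2, in the same class, lay below that median, and CHGB, at 52.3%, lay below that of its own class. The plot of the ratio against GC shows the 8 tested genes beside these medians. The part of base composition in the spread between WT libraries was not tested.

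**Figure D2:**
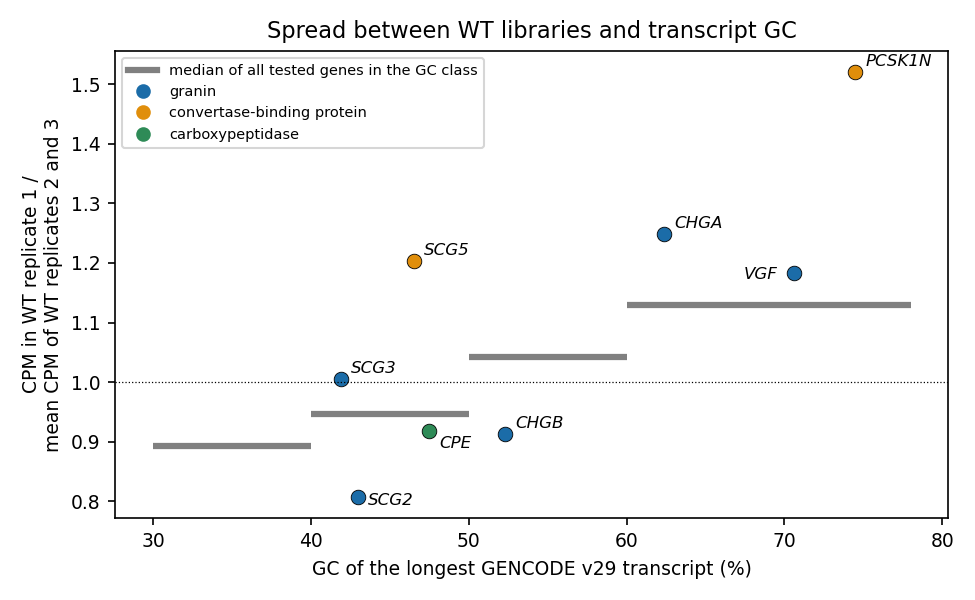
CPM in WT replicate 1 divided by the mean CPM of WT replicates 2 and 3 (y axis) against the GC percentage of the longest transcript (x axis) for the 8 tested genes, with grey bars at the median of all tested genes in each GC class. PCSK1N, CHGA and VGF lie high at 62.4% GC or more, and SCG2 lies lowest at 0.808.

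In the libraries labelled OTULIN KO, 9 of the 10 genes had no count at all. The exception was VGF, with 4, 0 and 0 counts, so that the 10 genes together held 4 of 2398362 KO counts. Without KO replicate 1 none of them was detected in KO. For the 8 genes that were tested, every KO value lay below every WT value, as it did for 88.0% of all tested genes. All 8 were called lower in KO by the quasi-likelihood test of edgeR (Benjamini-Hochberg adjustment over all tested genes, threshold 0.05), against 88.0% of tested genes called lower, 7.63% higher and 95.6% in either direction. These 8 passed the filter of 1 FPKM through their WT level alone, so the count of calls does not set them apart from other genes. Without that filter the same 8 were lower, against 42.6% of the 32862 genes in the table. With a minimum of 5 FPKM, which leaves out SCG5, 7 were lower, against 81.6% lower and 13.8% higher. Quantile normalization before limma, which forces equal distributions on the libraries, called 41.2% of tested genes lower and 39.5% higher; there 7 of the 8 were lower, and SCG5, although at 0 counts in KO, was called higher (log2 change 0.16, limma adjusted p = 0.011).

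Counts expected at the KO depth were well above 0 for most of these genes. At its share of the counts in WT replicates 1, 2 and 3, VGF would have had 1599, 1383 and 1320 counts in a KO library of mean depth. CHGA would have had 670, 546 and 527 counts there, SCG2 325, 397 and 409, CHGB 153, 165 and 171, and SCG3 123, 124 and 122. For SCG5 the same shares gave 9.16, 7.68 and 7.56 counts. For PCSK2 and PCSK1 they gave less than 1 count per KO library, so that their absence in KO was not informative at this depth. The plot of expected and deposited counts shows both sets.

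**Figure D3:**
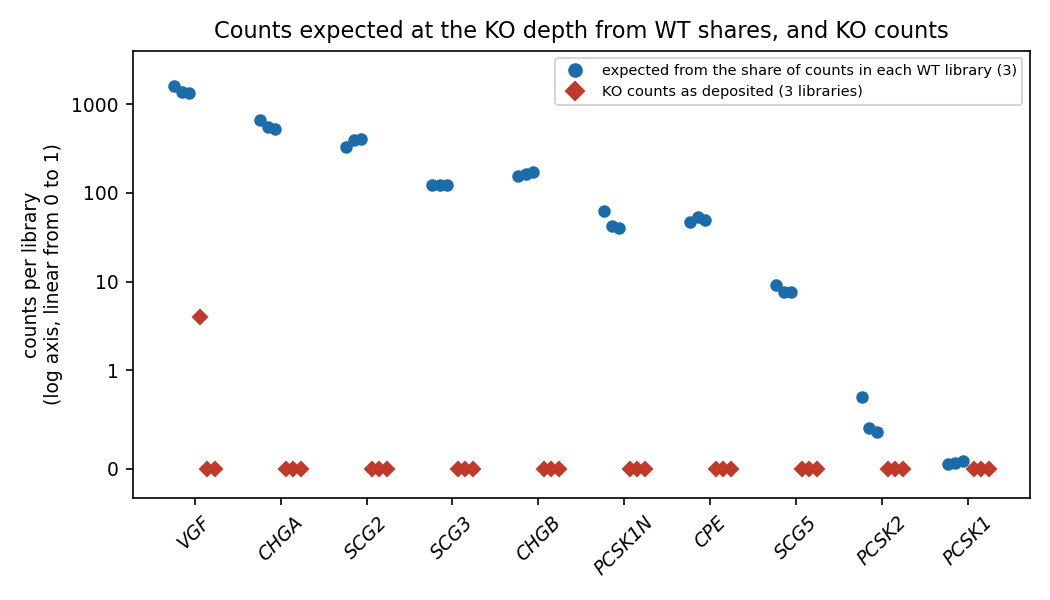
Counts per library for each gene on a log axis that is linear from 0 to 1. Circles are the counts expected in a KO library of mean depth from the share in each of the 3 WT libraries, and diamonds the deposited counts of the 3 KO libraries. All diamonds are at 0 except 1 of VGF at 4.

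VGF fell from 1794 ± 183 CPM in WT to 4 counts in 1 KO library, a 1076-fold decrease with a 95% counting interval (exact Poisson, on the pooled KO counts) from 420 to 3948. The edgeR adjusted p was 1.2e-05. The genes at 0 in KO can be given only a lower bound, against a floor of 1.25 CPM, which is 3 counts over the sum of the 3 KO libraries. CHGA (WT 727 ± 97 CPM) was at least 581-fold lower, SCG2 (471 ± 56 CPM) at least 377-fold, CHGB (204 ± 11 CPM) at least 163-fold and SCG3 (154 ± 1.2 CPM) at least 123-fold. CPE (62.7 ± 4.1 CPM) was at least 50.2-fold lower and PCSK1N (60.6 ± 15.6 CPM) at least 48.4-fold. SCG5 (10.2 ± 1.1 CPM) was at least 8.13-fold lower. Its edgeR adjusted p was 0.00018, that of PCSK1N 0.00062, and those of the other genes at most 1.8e-05. All of these genes, VGF included, passed the filter of 1 FPKM through their WT level alone, so these p-values are a description only. These bounds follow the WT levels and the KO depth, so their order is the order of the WT CPM. Intervals and bounds cover counting error only.

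Absence from KO was the common state of tested genes from 1 to 100 FPKM in WT, but not of those above 100 FPKM. Among tested genes of 1 to 10 FPKM in WT, the class of SCG5, 77.1% were at 0 in all KO libraries. In the class from 10 to 100 FPKM, that of SCG3, CHGB, PCSK1N and CPE, the share was 67.7%. Above 100 FPKM, where VGF, CHGA and SCG2 belong, 102 of 272 genes (37.5%) were at 0, among them CHGA and SCG2. By GC of the longest transcript, the share at 0 was 68.8% under 40% GC and 75.7% at 60% and above, the class of VGF, CHGA and PCSK1N. The part of base composition in the KO values was not tested.

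Among tested genes left after a filter on gene names, those whose 6 values were most like those of CHGA were PHOX2A, a transcription factor of noradrenergic neurons, RPS15 and TPI1. Their Euclidean distances from CHGA in log2(FPKM + 1) over the 6 libraries were 0.107, 0.201 and 0.207. For VGF the nearest were RPL7A, DBH and RGS5, at 0.832, 1.41 and 1.44. PHOX2A was at 257, 220 and 208 FPKM in WT, and RPS15 at 222, 210.3 and 204. All 6 of these genes were at 0 in every KO library, apart from RPL7A with 2 KO counts. The KO values are part of the distance, so KO values like these were favoured by the choice.

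The cargo of the granules was represented by a few peptide precursors. Of 45 precursor genes listed, 31 had a row, 11 reached 1 FPKM in WT and 4 reached 10. GAL, the precursor of galanin, was highest at 115.5 ± 8.3 FPKM (SD, n = 3), below SCG2 and above SCG3. VIP, which encodes vasoactive intestinal peptide, was at 55.9 ± 6.3 FPKM, and NPY, the gene of neuropeptide Y, at 40.7 ± 1.3. All 9 tested precursors were called lower in KO, and 8 were at 0 there (all tested genes: 88.0% lower, 71.3% at 0). These 9 passed the filter of 1 FPKM through their WT level, so the count of calls does not set them apart from other genes. GAL had 0, 0 and 5 KO counts. The median log2 change of the 9 was -10.86 as fitted and -3.49 with genes at 0 set to their bound, against -12.42 and -4.55 over all tested genes. For the 8 tested granin and processing genes it was -14.61 and -7.15. Where genes are at 0 in KO both values follow the WT level, so here and for the lists below such medians do not compare how far lists fell. The fitted value also depends on the method: with DESeq2 the median over all tested genes was -7.63.

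Other processing enzymes were all below CPE in WT. Of 19 listed, 12 reached 1 FPKM. The highest were MBTPS1, the site-1 protease of the convertase family, at 10.5 ± 0.38 FPKM, TPST1, a tyrosine sulfotransferase, at 9.37 ± 0.96, and PAM, which amidates peptide ends, at 8.64 ± 0.48. FURIN, the convertase of the constitutive pathway, was at 3.98 ± 0.068 FPKM, PCSK7 at 2.38 ± 0.18 and CPD, a relative of CPE, at 5.05 ± 0.40; these 3 were named after their values were seen. FURIN and PCSK7 were thus each above PCSK2 in every WT library. All 9 tested enzymes were called lower in KO and 4 were at 0 there, against 88.0% lower and 71.3% at 0 among all tested genes. Their median log2 change was -6.17 as fitted and -4.52 at the bound, where all tested genes had -12.42 and -4.55. MBTPS1 had 0, 24 and 0 KO counts, so that it was detected in KO replicate 2 alone. The 9 enzymes passed the filter of 1 FPKM through their WT level, so their count of calls does not set them apart either.

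The machinery that moves and releases dense-core vesicles held genes called in both directions. Of 43 genes, 29 were tested: 4 were higher, 24 lower and 1, VPS54, not called, against 7.63% higher and 88.0% lower among all tested genes. In this list 19 were at 0 in KO, and the median log2 change was -13.58 as fitted and -5.43 at the bound. DBH, the enzyme that makes noradrenaline inside the granule, stood highest in WT at 663 ± 47 FPKM as deposited, above VGF in each library. Its deposited FPKM imply a length of 2994 bases, below its GENCODE v29 exon union of 3776. For VGF the implied length is above the union, so the place of DBH above VGF depends on the length used. DBH was at 0 in KO, as were CYB561 (60.5 ± 2.7 FPKM), which supplies electrons to DBH, and ICA1 (49.6 ± 0.87), a granule-associated autoantigen. RAB2A, a GTPase of granule maturation, rose from 103 ± 3.9 to 427 ± 43 CPM (log2 change 1.65, SE 0.10, edgeR adjusted p = 1.2e-05).

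Among the vesicle calcium sensors, SYT1 rose from 52.0 ± 1.1 to 159 ± 15 CPM (log2 change 1.22, SE 0.11, edgeR adjusted p = 3.6e-05) and SYT7 from 34.2 ± 3.5 to 105 ± 26 CPM (1.21, SE 0.18, 0.00047). SNAP25, a fusion protein of the SNARE complex named after its values were seen, was at 460, 476 and 543 counts in KO, or 623 ± 109 CPM against 244 ± 3.8 (log2 change 0.95, SE 0.12, edgeR adjusted p = 0.00024). Among the 1496 genes with at least 30 KO counts the median log2 change was 0.57, so these 4 stood above that shift by 0.38 to 1.08 log2 units. With median-ratio scaling, where the median of those genes was 0.00, SNAP25, SYT1, SYT7 and RAB2A kept their direction and their calls at 0.38, 0.65, 0.63 and 1.08.

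**Figure D4:**
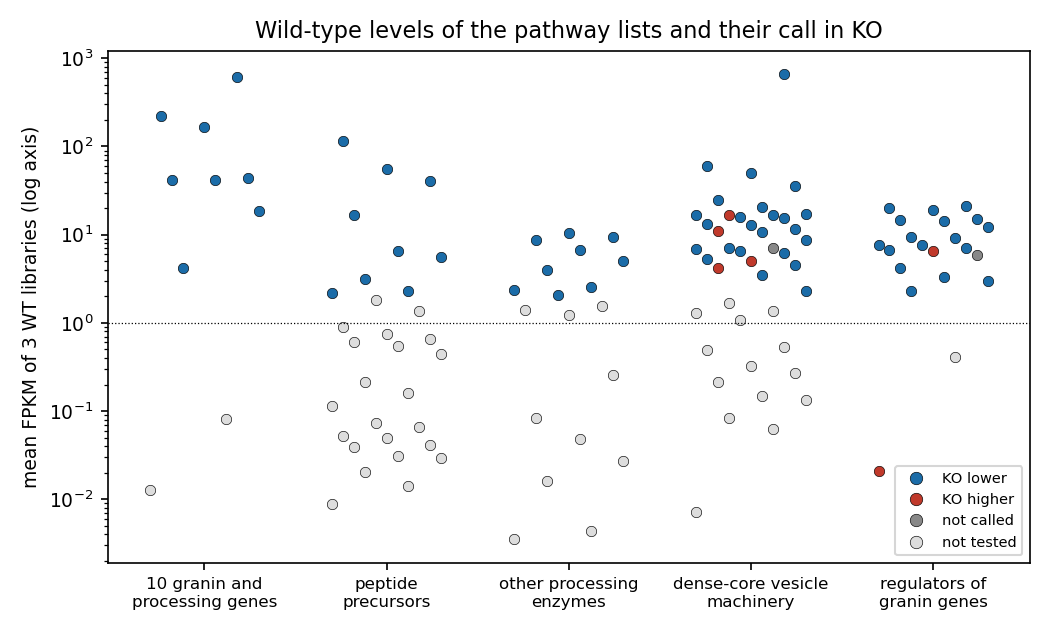
Mean FPKM of the 3 WT libraries on a log axis for the genes of each list, coloured by their call in KO against WT (not tested: mean under 1 FPKM over the 6 libraries). No granin or processing gene, peptide precursor or other processing enzyme is called higher in KO, while 4 genes of the vesicle machinery and 2 regulators are.

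Regulators of granin genes were measured as a list of 21, of which 20 were tested. There were 2 higher in KO, 17 lower and 1, CREB1, not called; 11 were at 0 in KO. Among all tested genes 7.63% were higher, 88.0% lower and 71.3% at 0. The median log2 change of the list was -12.01 as fitted and -4.62 at the bound. The highest in WT by deposited FPKM were HDAC2 (21.4 ± 0.80 FPKM), a histone deacetylase, KDM1A (20.0 ± 0.38), a histone demethylase of the REST corepressor complex, and EHMT2 (19.1 ± 1.2), a histone methyltransferase, all at 0 in KO. The deposited FPKM of KDM1A imply a length of 19987 bases against an exon union of 5440, so its place below HDAC2 depends on the length used. CREB1, the factor of the cAMP response element, had 59, 79 and 114 KO counts with means of 107 ± 44 CPM against 77.3 ± 6.3 in WT; its log2 change of 0.06 (SE 0.24) missed the threshold (edgeR adjusted p = 0.81). With median-ratio scaling CREB1 was called lower (-0.52, edgeR adjusted p = 0.039). REST, named like CREB1 after its values were seen, was at 2.96 ± 0.37 FPKM in WT and had 0, 0 and 4 KO counts.

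INSM1, a transcription factor that drives neuroendocrine secretory programmes, had 430, 418 and 405 counts in KO and 0, 0 and 12 in WT, with no overlap between the groups. It passed the filter of 1 FPKM through its KO level alone, so it had to differ, and its call (edgeR adjusted p = 1.4e-05) is a description only. Because its WT counts are so few, its fold is not given. Without WT replicate 3 it was at 0 in WT. RCOR3, a corepressor related to the REST partner CoREST, rose from 65.6 ± 5.0 to 370 ± 25 CPM (log2 change 2.10 with TMM scaling, SE 0.12, edgeR adjusted p = 1.2e-05). With median-ratio scaling its log2 change was 1.53, still called. INSM1 thus held more counts in each KO library than in any WT library, while CHGA, SCG2, SCG3 and CHGB were at 0 in the same KO libraries.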

How the data were processed

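Poly(A) RNA of 6 SH-SY5Y libraries was analysed from 1 table. The authors deposited whole-number counts per gene, not normalized, and FPKM values, per the file headers. Tools named, without roles, per the submitters' processing notes are StringTie 1.3.4d, HISAT2 2.0.4, cutadapt 1.9 and DESeq2, with build hg38; no source used here gives annotation or strandedness. A count of 4 occurred in 273 to 372 genes per KO library and a count of 3 in 129 to 170. In WT libraries the same counts occurred in 1377 to 1436 and 811 to 893 genes. A count therefore need not be 1 independent read, and counting intervals may be too narrow.

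Columns were matched by library name and grouped by title. The 10820 of 32862 genes that averaged 1 FPKM or more were tested with edgeR 4.0.16 (glmQLFit, glmQLFTest, TMM factors, R 4.3.3, genotype as the only term). Benjamini-Hochberg adjustment was over all of them. The method was tested on simulated data in which few genes changed, as many higher as lower. Most tested genes were called lower here, so that simulation does not check the method for libraries that differ this much. Each SE is the size of the log2 change divided by the root of edgeR's F. CPM are counts scaled to the library total. Replicate pairs differed by a chi-square of 15.5 to 41.7 per degree of freedom, so none was a library deposited again. Transcript lengths and GC came from GENCODE v29 (98.0% of tested genes matched), promoters from RefSeq. Protein sequences were not used here, and of the listed cell type markers AIF1, CDH5 and 1 other are not reported here.

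The 10 genes, the lists and the tests were chosen with earlier results of these data known. Beyond the 10 genes, those named were the 3 of highest WT FPKM and up to 3 largest increases per list, and the 3 nearest to CHGA and VGF in log2(FPKM + 1). The nearest genes were sought without the 10 genes and without names in the style of clones, non-coding RNA or pseudogenes. That filter drops every name ending in P and a number, whether or not it is a pseudogene. Others are marked in the text. Alternatives were no filter, at least 5 FPKM, median-ratio size factors, library totals, DESeq2 1.42.0, limma 3.58.1 (pseudocounts 1 and 0.1, and quantile-normalized), WT thinned to KO depth, a replicate block, a TPM scale, other gene lengths and leaving out each library. Python 3.11.15, numpy 2.4.6, pandas 2.3.3, scipy 1.17.1 and matplotlib 3.10.9 were used.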

Additional observations from a re-analysis of the deposited data

How the results depend on the processing

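All 8 tested genes stayed lower with a call under no filter, median-ratio factors, library totals, DESeq2, both limma pseudocounts, WT thinned to the KO depth and each left-out library; at least 5 FPKM removed SCG5 and kept the other 7. Over all genes, that filter gave 4504 calls (3851 lower) against 10345 (9519 lower, 826 higher). After quantile normalization with limma 4457 genes were called lower and 4273 higher (41.2% and 39.5% of tested genes), and 7 of the 8 were lower. There SCG5, at 0 counts in KO, turned to a log2 change of 0.16 with a call (limma adjusted p = 0.011), the 1 gene of the 10 called higher; OTULIN turned to 0.31, MBTPS1 to 0.23 and PAM to 0.14. With the replicate block, 741 genes were called (289 lower, 452 higher; 2.67% and 4.18%), and of the 8 genes 1, VGF, stayed called (edgeR adjusted p = 0.022), with the other 7 at 0.053 to 0.11; SNAP25 (0.053), SYT1 (0.072) and SYT7 (0.094) lost their calls too. The labels do not say that a number marks a shared culture. Deviations of same-numbered libraries correlated at -0.0013, -0.011 and 0.030 across 1496 genes with at least 30 KO counts. With 3 libraries per label and so few KO counts for many genes, these values cannot show whether a number marks a pairing. Only KO replicate 3 and WT replicate 3 correlated best with their own number. Leaving out each KO library left 0 to 1 of the 10 genes with a KO count. In the order of WT levels, 8 and 7 of 10 genes kept their place without WT replicates 2 and 3, and 7 with the longest transcript as length. The KO depth limits absence to genes whose WT share gives several KO counts, which PCSK1 and PCSK2 do not.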
